A study of Saccharomyces cerevisiae with 6 samples.

Results

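The cell wall genes described here are 37 genes of budding yeast for glucan and chitin synthesis, remodelling enzymes, mannoproteins and wall sensors. They were chosen by name from the platform's probe annotation and by no rule on measured values, though earlier results of these data were known. They are 37 of the 5656 genes to which that annotation gives a probe set of their own. The 37 genes lie on 52 of the array's probe sets, 33 of them on 1 each, and all 37 have at least 1 probe set among the 6956 tested.

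Transcripts of Saccharomyces cerevisiae were measured on 6 single-colour Affymetrix arrays after exposure to azinomycin B, a natural product that alkylates and crosslinks DNA. Cells in YPD (rich glucose medium) at 30 °C received the compound, in a little ethanol, at an optical density of 1.0 and were collected 6 h later. The groups were azinomycin B at 100 µg/ml (2 arrays, labelled A100 and B100), azinomycin B at 10 µg/ml (1 array, labelled 10) and control cultures without it (3 arrays, labelled A100, B100 and 10). The labels name no strain or genotype, they do not say whether the control cultures received ethanol, nor that the arrays came from separate cultures, so p-values measure the spread between these arrays, which may be technical. The annotations give 10 µg/ml as the ED50 (median effective dose).

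The yeast wall has an inner layer of beta-1,3-glucan with some chitin, which carries the mechanical load, and an outer layer of heavily glycosylated mannoproteins. Most mannoproteins are joined through beta-1,6-glucan and the remnant of a GPI (lipid) anchor, while the PIR proteins, named for their internal repeats, are bound to beta-1,3-glucan directly. Sensors in the plasma membrane report wall stress through the GTPase Rho1 and protein kinase C to the MAP kinase Slt2, and the wall is remodelled through the cell cycle and on leaving rapid growth.

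The deposited signals had the same trimmed mean on every array, and the median signal was 125.6 to 143.9 on treated arrays and 112 to 127.9 on control arrays. The 3' to 5' signal ratio of the actin gene ACT1, a sign of RNA integrity, was 1.44 to 2.09 on treated arrays and 1.69 to 2.05 on control arrays. Treated A100 stood apart from the other 3 arrays labelled A100 and B100: over all tested probe sets its correlation with them was 0.906 to 0.932, while those 3 correlated with each other at 0.979 to 0.980. Treated and control 10 correlated at 0.970 with each other and at 0.891 to 0.919 with treated B100 and controls A100 and B100. Each gene below is therefore given on every array and in each pair of treated and control arrays of the same label. Differences are on the log2(signal + 16) scale, treated minus control, and levels are compared between arrays for 1 probe set, not between genes.

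In the A100 pair 23 of the 37 genes were higher on the treated array, in the B100 pair 22 and in the 10 pair 20, and 51.6%, 56.7% and 57.9% of all tested probe sets were. Of the 17 genes for synthesis and remodelling, 10 were higher in all 3 pairs and 2, BGL2 and SCW4, were lower in all 3. Of the 9 GPI mannoproteins, 0 were higher in all 3 pairs and 5 were lower, as was the secreted glycoprotein YGP1. The A100 pair held the largest values: 9 of 37 genes (24.3%) were at least 2-fold higher, against 10.7% of all tested probe sets, and 0 were 2-fold lower, against 6.12%. In the B100 pair 0 genes were at least 2-fold higher or lower, against 2.06% and 0.661% of all probe sets, and in the 10 pair 2 genes (5.41%) were 2-fold higher and 1 (2.7%) 2-fold lower, against 2.1% and 2.4%. In all 3 pairs 14 genes (37.8%) were higher on the treated array, against 22% of all probe sets, and 8 (21.6%) were lower, against 12.2%. Such counts match treated and control arrays by label, which the main fits did not take as pairs. Scaling each array to its median lowered the median of all probe sets by 0.20, 0.15 and 0.14 (log2) in the A100, B100 and 10 pairs, and 17, 16 and 17 of the 37 genes were then higher. After quantile normalisation 25, 27 and 25 were higher. Above the median of all probe sets lay 22, 18 and 19 of the genes with the signals as deposited, the same numbers after median scaling, and 29, 27 and 23 after quantile normalisation. With the signals as deposited, after median scaling and after quantile normalisation alike, 11 genes (29.7%, against 11.2% of all probe sets) were higher in all 3 pairs and 1 gene, SPI1 (2.7%, against 10.2%), was lower in all 3.

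**Figure D1:**
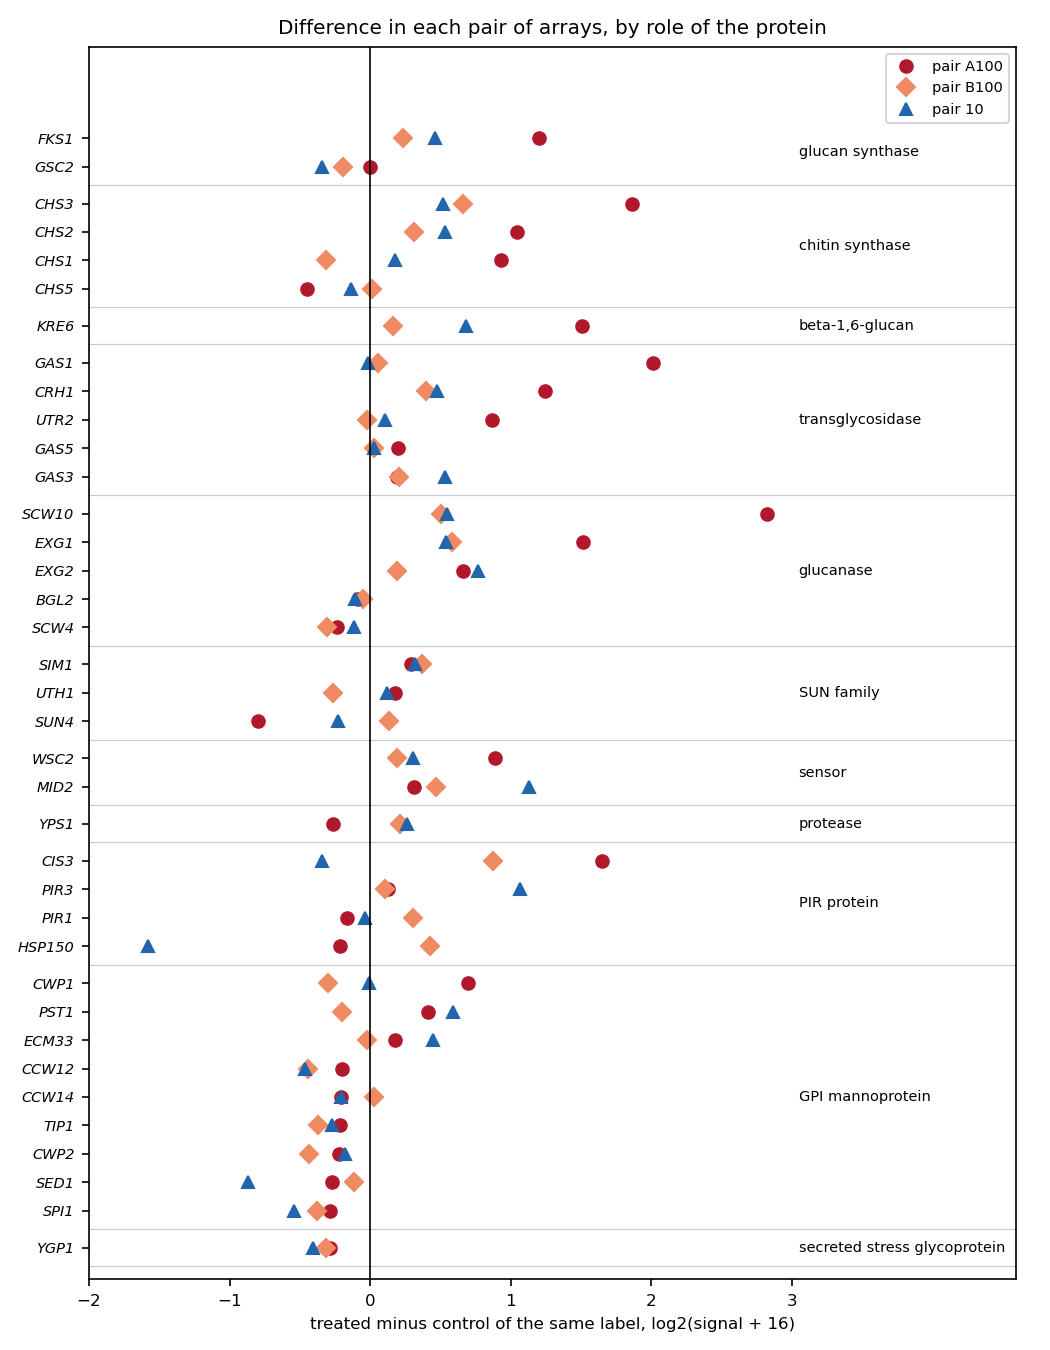
Treated minus control in the pairs labelled A100, B100 and 10, on the log2(signal + 16) scale (x axis), for the 37 cell wall genes grouped by the role of the protein; each point is 1 pair of arrays, and there are no error bars because each pair is 1 array against 1. SCW10 at 2.82 and GAS1 at 2.02 in the A100 pair lie far to the right of their values in the other 2 pairs, and HSP150 at -1.58 in the 10 pair lies farthest to the left.

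No gene of the set passed limma's test for azinomycin B against control after Benjamini-Hochberg adjustment over the 6956 probe sets: 0 of 37 at 100 µg/ml, 0 of 37 at 10 µg/ml and 0 of 37 over both doses, where 0% of all probe sets passed in each comparison. At an unadjusted p under 0.05 the counts were 2 genes at 100 µg/ml (5.41%, against 6.11% of all probe sets), 4 at 10 µg/ml (10.8%, against 3.65%) and 3 over both doses (8.11%, against 7.53%). The median difference of the 37 genes was 0.12 at 100 µg/ml, 0.11 at 10 µg/ml and 0.20 over both doses, beside 0.05, 0.08 and 0.06 for all probe sets. The count at 100 µg/ml rested on treated B100: with that array left out, so that treated A100 alone stood for the dose, 11 of the 37 genes (29.7%) and 1135 of all probe sets (16.3%) passed, all 11 higher. In that fit the dose is 1 array, and its spread is assumed to be that between controls A100 and B100, the only residual degree of freedom, moderated over all probe sets. These 11 were CHS1, CHS2, CHS3, CIS3, CRH1, EXG1, FKS1, GAS1, KRE6, SCW10 and WSC2.

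The catalytic subunit of beta-1,3-glucan synthase, the plasma membrane enzyme that spins the main wall polymer, is encoded by FKS1 in dividing cells and by its paralog GSC2 (also called FKS2) on poor carbon sources, in mating and in stress. FKS1 had signals of 2894.3, 1113.5 and 2121.7 on treated A100, B100 and 10, against 1251.8, 943.3 and 1536.1 on the controls of the same labels, with pair differences of 1.20, 0.24 and 0.46. It was higher in all 3 pairs, but treated B100 lay below control A100 and control 10. GSC2 had 1473.5, 1413.6 and 2516.5 on treated arrays, against 1472.4, 1616.3 and 3197.8 on controls, with pair differences of 0.00, -0.19 and -0.34, and both arrays labelled 10 lay above all 4 others. Both genes have several probe sets, 8 for FKS1 and 7 for GSC2. All 8 of FKS1 were higher in the A100 pair (0.32 to 2.84) and in the B100 pair (0.07 to 0.93), and 7 of 8 in the 10 pair (-0.02 to 0.71). Of the 7 of GSC2, 6 were lower in the A100 pair (-1.75 to 0.00 over all 7), 5 in the B100 pair (-0.56 to 0.36) and 6 in the 10 pair (-0.40 to 0.02). Probe sets of 1 gene read the same RNA and are not replicates, and since the genes are paralogs, cross-hybridisation between them was not tested.

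**Figure D2:**
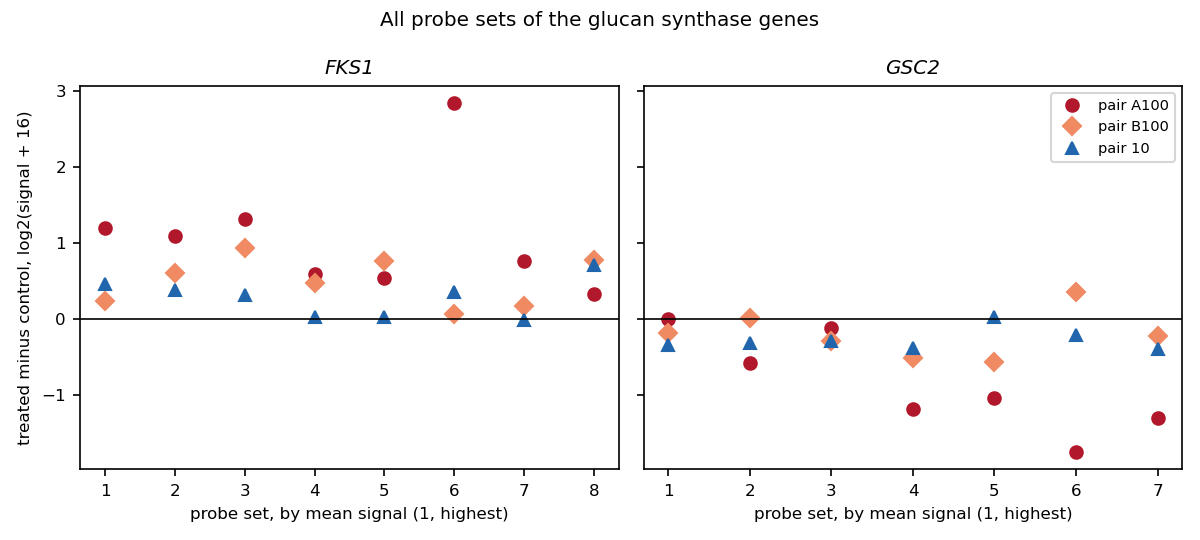
Treated minus control in each pair of arrays (y axis, log2(signal + 16) scale) for every probe set of FKS1 (left, 8) and GSC2 (right, 7), ordered by mean signal from the highest (x axis). FKS1 points lie at or above 0 except 1 at -0.02, and most GSC2 points lie below 0, the lowest at -1.75.

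Chitin is made by 3 synthases. CHS3, which makes most of the chitin of the bud neck ring and the lateral wall, had 624.8, 214.1 and 337.3 on treated A100, B100 and 10, against 160.2, 129.3 and 230.2 on the controls, with pair differences of 1.86, 0.66 and 0.52. Both treated arrays at 100 µg/ml exceeded both of their own controls, which held for 7 of the 37 genes (18.9%) and 26.1% of all probe sets, though treated B100 lay below control 10. CHS2, the synthase of the primary septum, had 226.9, 100.9 and 76.6 on treated arrays, against 101.6, 77.9 and 48.1 on controls, with pair differences of 1.05, 0.32 and 0.53. Its 3 pair differences were positive while its levels overlapped between groups. CHS1, which repairs the wall at cell separation, had pair differences of 0.93, -0.32 and 0.18, and CHS5, a subunit of the exomer coat that carries Chs3 to the cell surface, had -0.45, 0.01 and -0.13. KRE6, a glucosyl hydrolase family protein needed for beta-1,6-glucan, had 628.5, 255.5 and 793.6 on treated arrays, against 210.3, 225.9 and 487.4 on controls, with pair differences of 1.51, 0.17 and 0.69. KRE6 was higher in every pair, and control 10 exceeded treated B100.

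Among the enzymes that cut and rejoin wall polymers, GAS1, the main beta-1,3-glucan elongase at the cell surface, had 4399.7, 944.8 and 4615.9 on treated A100, B100 and 10, against 1076, 908 and 4658.5 on the controls. The 3 arrays at about 4400 and above were treated A100 and both arrays labelled 10, so the pair differences were 2.02, 0.06 and -0.01. Of its relatives, GAS5 had pair differences of 0.20, 0.03 and 0.03 and GAS3 had 0.19, 0.21 and 0.54. CRH1, which joins chitin to beta-glucan, had 1221.4, 548.7 and 982.8 on treated arrays, against 506.9, 411.8 and 703.2 on controls, with pair differences of 1.24, 0.40 and 0.47. UTR2, a CRH family enzyme with the same activity, had signals of 17.3 to 63.2 on treated arrays and 17.8 to 37.4 on control arrays, near the 16 added before the logarithm, and pair differences of 0.86, -0.02 and 0.11.

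SCW10, a wall protein related to glucanases, had the largest pair difference among the probe sets that stand for the 37 genes. A weaker FKS1 probe set was at 2.84, with a signal of only 14.6 on control A100. Signals of SCW10 were 1729, 262 and 1600.2 on treated A100, B100 and 10, against 230.3, 180.4 and 1088.5 on the controls. Its pair differences were 2.82, 0.50 and 0.55. As with GAS1, the arrays fell into 3 high ones, treated A100 and both labelled 10, and 3 low ones. A second SCW10 probe set, of weaker signal, had 1.86, -0.33 and 0.25. EXG1, the major secreted exo-beta-1,3-glucanase, had 1236.1, 420.9 and 722.2 on treated arrays, against 423.1, 275.1 and 490.9 on controls, with pair differences of 1.51, 0.59 and 0.54, and EXG2, a second exo-glucanase, had 0.66, 0.19 and 0.77. EXG1, EXG2 and SCW10 were thus higher in all 3 pairs. The endo-glucanase BGL2, an abundant wall protein, had -0.09, -0.05 and -0.10, and SCW4, the paralog of SCW10, had -0.24, -0.31 and -0.11. The SUN family, linked to septum and wall maintenance, was mixed: SIM1 had 0.29, 0.37 and 0.32, UTH1 0.17, -0.27 and 0.12, and SUN4 -0.80, 0.13 and -0.23.

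MID2, a plasma membrane sensor of wall stress, had 1131.3, 967 and 1005.9 on treated A100, B100 and 10, against 906.8, 692.5 and 451.7 on the controls, with pair differences of 0.31, 0.47 and 1.13. It was the only gene of the 37 (2.7%) whose 3 treated arrays all exceeded all 3 control arrays, which 6.04% of all probe sets did. WSC2, a sensor of the other family, had 588.5, 269 and 278.2 on treated arrays, against 309.7, 233.8 and 222.1 on controls, with pair differences of 0.89, 0.19 and 0.31. The yapsin YPS1, an aspartic protease anchored at the cell surface, had -0.27, 0.21 and 0.27. Further genes of the pathway these sensors feed were read from a list of 22, of which 21 were tested and 0 passed in any comparison of azinomycin B with control. Over both doses 13 of the 21 were positive and 8 negative, with a median of 0.07 beside 0.06 for all probe sets. The largest were the sensor gene WSC3 at 0.96, the MAP kinase gene SLT2 at 0.93 and the phosphatase gene PTP2 at 0.82 (limma, adjusted p = 0.585 for each). SLT2 had 623.4, 288.6 and 569.7 on treated arrays, against 157.3, 174.9 and 484.2 on controls, again with treated A100 and both arrays labelled 10 as the 3 highest.

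The 4 PIR genes differed in direction. CIS3 had 7807.2, 3629.9 and 5825.1 on treated A100, B100 and 10, against 2470.5, 1974.5 and 7397.5 on the controls, with pair differences of 1.65, 0.87 and -0.34. At 100 µg/ml both treated arrays exceeded both controls, and at 10 µg/ml the order was the opposite. HSP150, a heat-inducible secreted PIR protein, had 7167, 8188.6 and 3054.3 on treated arrays, against 8298.5, 6091.2 and 9174.9 on controls, with pair differences of -0.21, 0.43 and -1.58. Its treated 10 array was the lowest of all 6 and its control 10 array the highest. PIR3 had 4389.1, 3570.4 and 1962.8 on treated arrays, against 4020.1, 3314.8 and 928.4 on controls, with pair differences of 0.13, 0.11 and 1.07. PIR3 was higher on all 4 arrays labelled A100 and B100 than on the 2 labelled 10, whatever the treatment. PIR1 had -0.16, 0.31 and -0.03. In the RefSeq R64 gene table HSP150 and CIS3 are next to each other on chromosome X, and PIR1 and PIR3 on chromosome XI, and the neighbours differed in sign in the A100 pair in both cases.

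The GPI mannoproteins form the outer coat. SED1, the main structural wall protein of resting cells, had 7381.6, 8086.2 and 4780.3 on treated A100, B100 and 10, against 8904.6, 8746.1 and 8751.2 on the controls, with pair differences of -0.27, -0.11 and -0.87. Its 3 treated arrays all lay below all 3 control arrays, as did those of the mannoproteins CWP2 and TIP1, so that 3 of 37 genes (8.11%) showed this order, against 2.96% of all probe sets. CWP2 had 7958.5, 8661.1 and 8409.1 on treated arrays, against 9279.5, 11737.8 and 9535.1 on controls, with pair differences of -0.22, -0.44 and -0.18. TIP1 had 10291.8, 10614.6 and 10655.7 on treated arrays, against 11916.2, 13731.9 and 12858.8 on controls, with pair differences of -0.21, -0.37 and -0.27. CCW12, needed for wall stability at sites of growth, had -0.20, -0.44 and -0.46, the stress-induced SPI1 had -0.29, -0.37 and -0.54, and YGP1, a glycoprotein secreted on nutrient limitation, had -0.29, -0.31 and -0.40. After quantile normalisation the direction of BGL2, CCW12, CWP2, SCW4, SED1, TIP1 and YGP1 turned in at least 1 pair, and that of SPI1 did not. CCW14 had -0.21, 0.02 and -0.21. CWP1, next to CWP2 on chromosome XI, had 5474.9, 2831.4 and 2253.1 on treated arrays, against 3370.5, 3496.4 and 2262.5 on controls, with pair differences of 0.70, -0.30 and -0.01. ECM33, needed for normal wall structure, had 0.18, -0.02 and 0.45 (0.15, 0.69 and 0.29 on a second probe set), and its paralog PST1 had 0.41, -0.20 and 0.59.

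Split at a mean signal of 2000, a cut chosen after the values were seen, the stronger genes were less often higher on the treated array. So were the stronger of all tested probe sets. Strength was not separate from role in these genes, as most GPI mannoproteins lay at 2000 or more. Of the 18 genes with a mean signal of 2000 or more, 7, 7 and 4 were higher on the treated array of the A100, B100 and 10 pairs, with medians of -0.18, -0.08 and -0.15. Among all 830 probe sets of that strength 35.1%, 37.5% and 40.4% were higher, with medians of -0.19, -0.10 and -0.07. Of the 19 genes under 2000, 16, 15 and 16 were higher, with medians of 0.86, 0.21 and 0.47. Among all 6126 tested probe sets under 2000, 53.8%, 59.3% and 60.3% were higher, with medians of 0.07, 0.08 and 0.11. These probe sets were not matched in strength to the 19 genes, most of which lay above the median signal of the arrays. In every pair CCW12, CWP2, SCW4, SED1, SPI1, TIP1 and YGP1 lay below the median of all probe sets of 2000 or more. BGL2 did so only in the 10 pair. The part of signal strength in the values above was not tested.

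At 100 µg/ml the 4 largest fitted differences were those of SCW10 at 1.66 ± 0.831, CIS3 at 1.26 ± 0.404, CHS3 at 1.26 ± 0.504 and EXG1 at 1.05 ± 0.537 (SE, 2 treated and 2 own-label control arrays). Each had an adjusted p of 0.636 in limma, so none passed. Against all 3 controls SCW10 was at 0.89 and CIS3 at 0.68, and the second SCW10 probe set was at 0.76. Without treated A100 they were 0.34, 0.71, 0.52 and 0.29, and without treated B100 they were 2.99, 1.81, 2.002 and 1.81, with adjusted p values of 0.00125, 0.00583, 0.0041 and 0.00988 that rest, for 1 treated array, on the spread of its 2 controls. At 10 µg/ml the 4 largest were HSP150 at -1.58 ± 0.360, MID2 at 1.13 ± 0.360, PIR3 at 1.07 ± 0.346 and SED1 at -0.87 ± 0.300 (SE, 1 array against 1, with the spread borrowed from the other arrays). Their adjusted p in limma was 0.998. Against all 3 controls instead of control 10, MID2 was at 0.60 and PIR3 turned to -0.24. Over both doses SCW10 at 1.29 ± 0.636, CHS3 at 1.02 ± 0.395, EXG1 at 0.88 ± 0.405 and KRE6 at 0.79 ± 0.326 were the largest, with an adjusted p of 0.585 for each. With treated A100 left out these 4 were 0.43, 0.52, 0.40 and 0.42, SCW10 was 1.94 without treated B100, and its second probe set was at 0.59.

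The arrays labelled A100 and B100 were also set against those labelled 10. With treatment as a term in the model, 2 of 37 genes (5.41%) passed limma's test between the 4 arrays labelled A100 and B100 and the 2 labelled 10, while 10.4% of all probe sets did. At an unadjusted p under 0.05 it was 15 genes (40.5%), against 30.4% of all probe sets. PIR3 was higher on the A100 and B100 arrays, by 1.48 ± 0.266 (SE, adjusted p = 0.0226), in a comparison where 5.18% of all probe sets passed in each direction. GSC2 was lower there, at -0.92 ± 0.187 (adjusted p = 0.0295), and all 7 GSC2 probe sets were negative (-1.41 to -0.66), 5 of them past the threshold. After median scaling GSC2 itself was at -0.82 and missed it (adjusted p = 0.059). The 7 tested probe sets of its paralog FKS1 were negative too (-2.63 to -0.37), 2 of them past the threshold. That at -2.63 had a signal of only 14.6 on control A100. The probe set that stands for FKS1 was at -0.37 (adjusted p = 0.549). SCW10 at -1.77 ± 0.675 (adjusted p = 0.130), GAS1 at -1.69 ± 0.573 (0.100) and KRE6 at -1.03 ± 0.346 (0.0989) were farther from 0 than GSC2 but did not pass, and the second SCW10 probe set was at -0.43. Without overlap, 11 of the 37 genes (29.7%) were higher on all 4 arrays labelled A100 and B100 than on both labelled 10, against 18.9% of all probe sets, and 3 (CHS5, GAS1 and GSC2; 8.11%) were lower, against 19.6%. Neither call held in every fit that left out 1 array: 0 of the 37 passed without control A100, control B100, control 10 or treated 10 (0.288%, 0.848%, 0.0719% and 0% of all probe sets), PIR3 alone (2.7%, against 3.32% of all probe sets) passed without treated B100, and 11 passed without treated A100. Those 11 (29.7%, against 29.2% of all probe sets) were PIR3, GAS5 and SIM1, higher on the arrays labelled A100 and B100, and CIS3, CRH1, EXG2, FKS1, GAS1, GSC2, KRE6 and SCW10, lower there. The differences themselves were 1.01 to 1.96 for PIR3 and -1.04 to -0.80 for GSC2 over the 6 fits without single arrays, each with 2 residual degrees of freedom in place of 3. Label and day or batch of culture cannot be told apart here, and the labels name none. Nor is dose separate from label: 1 treatment term stood for both doses, so treated arrays of different dose entered the difference between the series. In the control arrays alone, which hold no difference in dose, PIR3 was at 1.96 and GSC2 at -1.04.

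**Figure D3:**
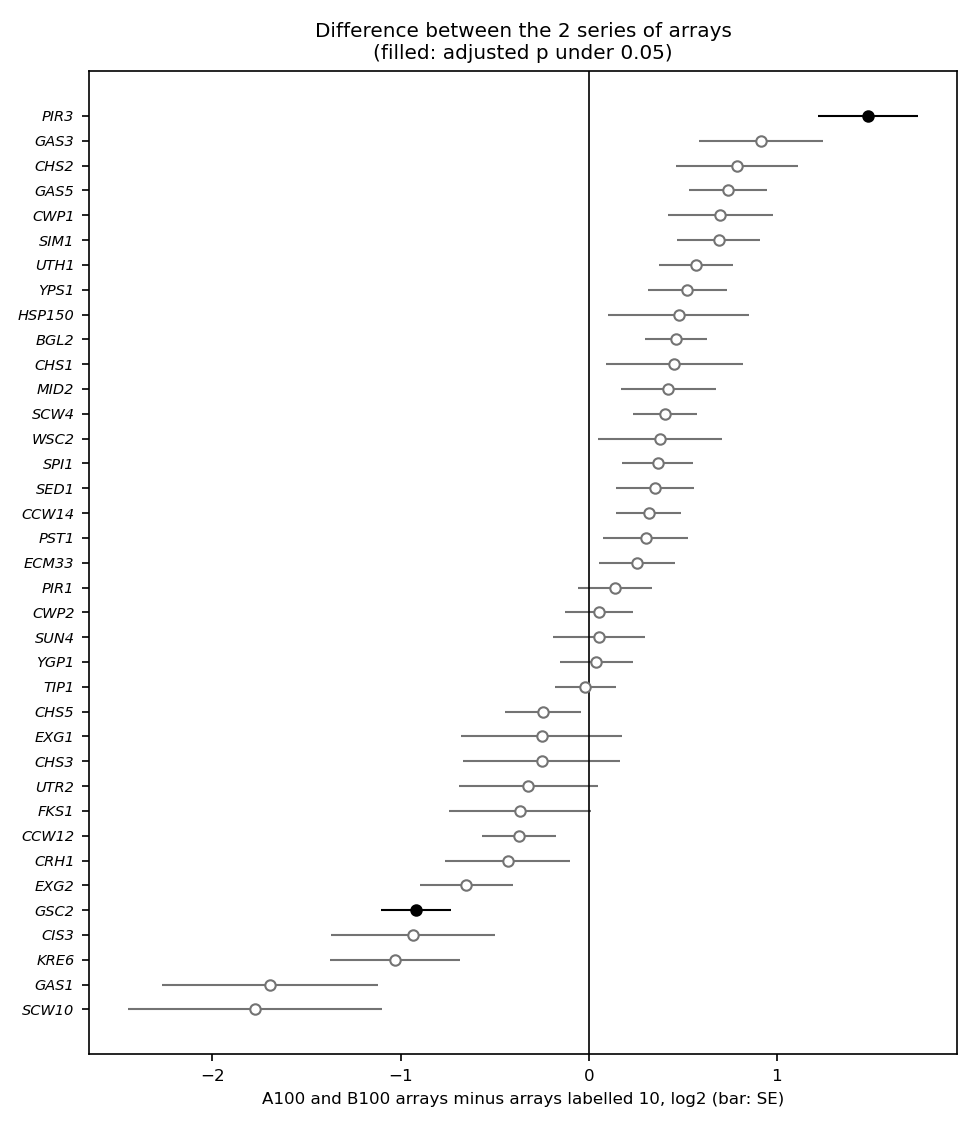
Fitted difference between the 4 arrays labelled A100 and B100 and the 2 labelled 10, with treatment in the model (x axis, log2(signal + 16) scale; bars are SE), for the 37 cell wall genes from the highest to the lowest. The filled points, PIR3 at 1.48 and GSC2 at -0.92, are the 2 genes past an adjusted p of 0.05; GAS1 and SCW10 at the bottom have wider bars.

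In 7 of the 37 genes (18.9%, against 18.4% of all probe sets) control 10 stood at least 2-fold from the mean of controls A100 and B100. SCW10 was 2.33 (log2) higher on control 10, GAS1 2.22, CIS3 1.74, KRE6 1.11 and GSC2 1.04, while GAS3 was at -1.08 and PIR3 at -1.96. Treated A100 lay near the mean of the 2 arrays labelled 10 in 4 of these genes, at a difference of -0.08 for GAS1, 0.01 for KRE6, 0.25 for CIS3 and 0.39 for SCW10. In the other 3 it lay near the rest of the A100 and B100 arrays: treated A100 minus the mean of those 3 was -0.02 for GSC2, 0.67 for GAS3 and 0.28 for PIR3, and treated A100 minus the arrays labelled 10 was -0.94, 1.42 and 1.69. Treated A100 was the highest of the 6 arrays in 19 of the 37 genes (51.4%), against 22.6% of all probe sets. SCW10 and GAS1 are separated by 1 gene on chromosome XIII of the R64 table.

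**Figure D4:**
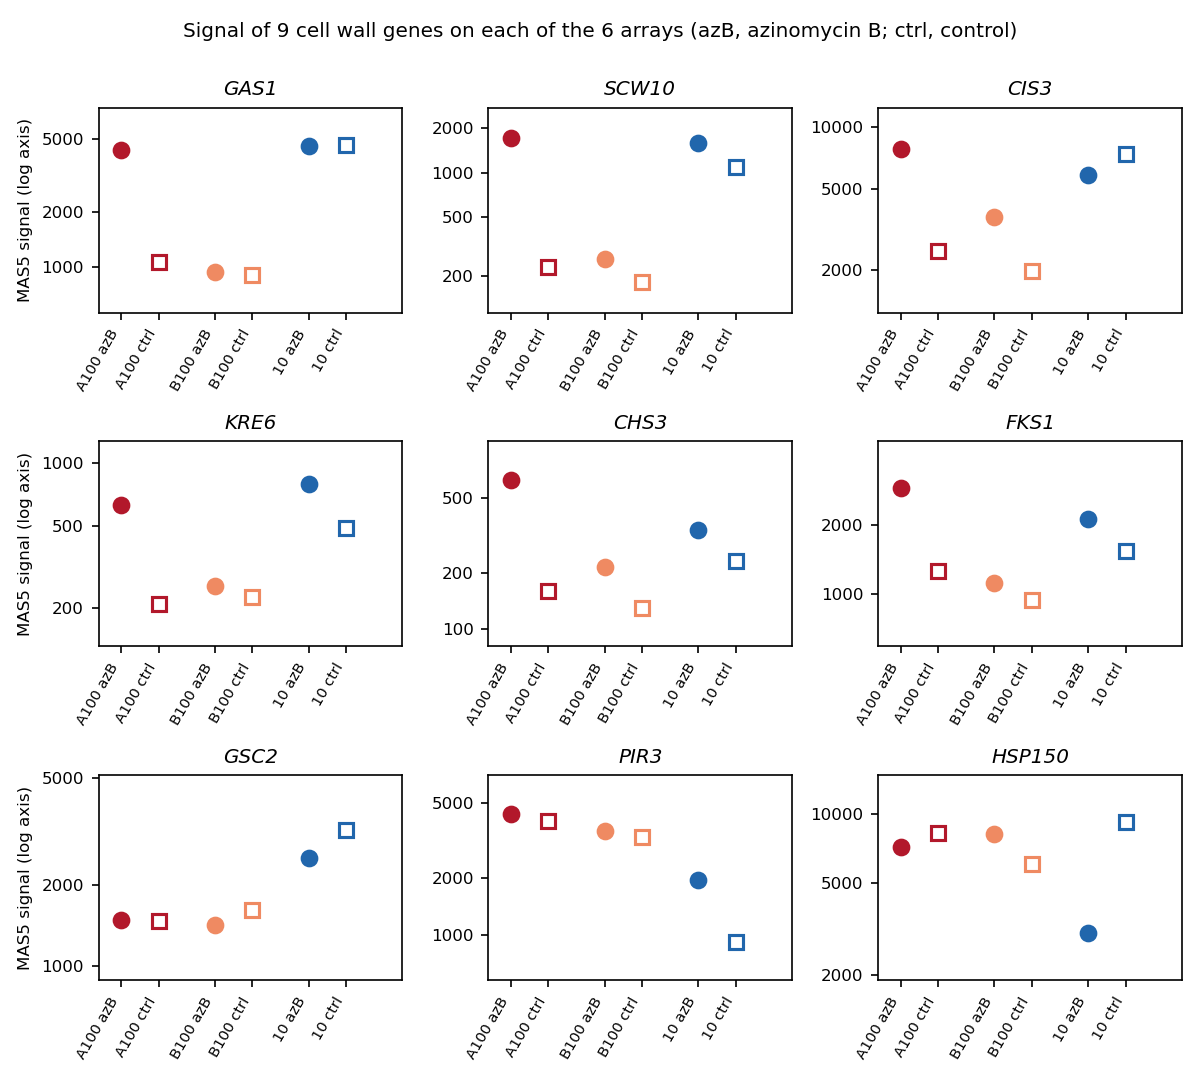
MAS5 signal on each of the 6 arrays for 9 cell wall genes (y axis, log scale with its own range in each panel); filled circles are azinomycin B arrays and open squares the control arrays of the same label, 1 array each. GAS1 and SCW10 have 3 high arrays, treated A100 and both labelled 10, whereas PIR3 is lowest on the 2 labelled 10 and HSP150 is lowest on treated 10.

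Other genes of wall building were read from lists by function, and 0 passed in any comparison of azinomycin B with control. Of 10 tested genes for chitin precursors and chitin synthase partners, 7 were positive over both doses, with a median of 0.41, led by the Chs3 activator gene SKT5 at 0.92, CHS7, which lets Chs3 leave the endoplasmic reticulum, at 0.80 and BUD7, another exomer component, at 0.51. The median of these 10 was largest in the A100 pair: 0.72, 0.12 and 0.26 in the A100, B100 and 10 pairs. All probe sets had medians of 0.03, 0.06 and 0.08 there. In the same pairs SKT5 was at 1.40, 0.43 and 0.93, CHS7 at 1.69, 0.47 and 0.24, and BUD7 at 1.34, -0.10 and 0.28. Of 11 genes for beta-1,6-glucan 7 were positive, with a median of 0.17. Of 21 genes for mannoprotein glycosylation 14 were positive, with a median of 0.12, led by the mannosyltransferase genes MNN11 at 0.91 and PMT5 at 0.71. Of 6 tested anaerobic and cold-shock mannoproteins 5 were positive, with a median of 0.14. At 10 µg/ml 1 of these was positive and 5 were negative, with a median of -0.11. Of 4 yapsin genes 2 were positive over both doses, with a median of 0.07. The median of all probe sets over both doses was 0.06. Between the arrays labelled A100 and B100 and those labelled 10, ROM1, an exchange factor for Rho1, was at 1.77 and MTL1, a relative of MID2, at 1.19, the glycosylation gene MNN4 was at 1.42, the yapsin gene YPS7 at -1.06, and the beta-1,6-glucan genes BIG1 and KNH1 at -1.40 and -1.88. These 6 passed in limma, with adjusted p values of 0.00799 for KNH1 to 0.0337 for MNN4, and no other gene of the lists did, so that 6 of 73 tested genes (8.22%) were called, against 10.4% of all probe sets.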

How the data were processed

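MAS5 gave the linear intensity values that the authors deposited, a signal for each probe set, according to the submitters' processing notes, whose MAS5 version is not known here. On all 6 arrays the 2% trimmed mean lay between 500.317 and 500.404, so no scaling was added. Signals were analysed as log2(signal + 16), a scale that understates differences of low signals. The 60 control probe sets and the 25% of the remaining 9275 with the lowest mean log2 value were left out, leaving 6956. Names came from the platform annotation (6504 probe sets with 1 name, 328 with several, 2443 with none). Where a gene had several probe sets, that with the highest mean stood for it.

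limma 3.58.1 in R 4.3.3 fitted all 6 arrays with eBayes and a variance trend. The first model held 100 µg/ml, 10 µg/ml and a series term (A100 and B100 arrays, or arrays labelled 10), with 2 residual degrees of freedom. The second held treatment at either dose and series, with 3. P-values were adjusted by Benjamini-Hochberg over 6956 probe sets at a threshold of 0.05. The fits were tested on simulated data. Levels rest on 1 to 3 arrays a group, and that number limits their precision.

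The genes, lists and tests were chosen with earlier results of these data known. All 37 genes are named, and full statistics are given for those past the threshold or, if fewer than 4 pass, for the 4 largest; GSC2 was added between the series because it passed outside the 4 largest. Of each functional list up to 3 genes are named, and those that passed. The split at a signal of 2000 was chosen after the values were seen. Alternatives were other scalings, pseudocounts, filters, model terms, probe sets and left-out arrays. No sequences are printed.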

Additional observations from a re-analysis of the deposited data

Results flagged for a closer look

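Treated A100 lay apart from the other 3 arrays labelled A100 and B100 in 2 of the genes: the gap to the nearest array was 0.893 of the range for GAS1 and 0.841 for SCW10, above Dixon's 95% critical value for 4 values. In CCW14 it was control A100, at a signal of 8312.7, that lay apart, at 0.882. Chance flags about 1 in 20 groups, and 8.91% of all tested probe sets (620 of 6956) had such an array among these 4.

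CIS3 and GAS1 had positive differences on both arrays at 100 µg/ml and a negative one at 10 µg/ml. The fitted difference at 100 µg/ml minus that at 10 µg/ml was 1.61 for CIS3 and 1.05 for GAS1, and neither passed in limma (adjusted p = 0.966 for both). For GAS1 the value at 10 µg/ml was -0.01, and the dose comparison is also one between the 2 series of arrays.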

How the results depend on the processing

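Between azinomycin B and control, 0 of the 37 genes were called at either dose or over both under every alternative run except 1: without treated B100, 11 were called at 100 µg/ml. The number of probe sets called without single arrays was 0 to 1135 at 100 µg/ml, 0 to 1 at 10 µg/ml and 0 to 1 over both doses. The median of the 37 genes at 100 µg/ml was -0.081 after median scaling, 0.27 with no series term and -0.064 to 0.31 without single arrays. At 10 µg/ml it was -0.080 after median scaling and -0.093 with no series term, which also turned PIR3 to -0.24. Over both doses it was -0.014 after median scaling and -0.041 to 0.38 without single arrays. The cause was not tested.

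Between the 2 series of arrays, the genes called were 6 and the probe sets 1423 in the control arrays alone, and 479 probe sets were called without the filter on low signals. Without single arrays 0 to 11 genes and 0 to 2033 probe sets were called. In these fits 37 genes were tested and, except without the filter on low signals, 6956 probe sets. In the control arrays alone the share of genes called was below that of probe sets, with control 10 alone standing for its series. The highest counts without single arrays, those without treated A100, were 29.7% of the genes and 29.2% of the probe sets. The median of the genes was 0.38 after median scaling, 0.11 in control arrays alone and 0.094 to 0.28 without single arrays. GSC2 missed the threshold after median scaling (-0.82, adjusted p = 0.059, range 0.00502 to 0.271 over its alternatives in limma). With label as a replicate block 0 genes were called and the medians were 0.12, 0.11 and 0.20 at 100 µg/ml, 10 µg/ml and both doses. In the main fits labels were not taken as pairs: same-label deviations correlated at 0.071 for A100, 0.458 for B100 and 0.666 for 10, and not every array correlated best with its own label.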
